A study of Homo sapiens with 4 samples.

Results

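The miR-34 family was followed in HepG2 hepatoma cells over the first hours of berberine treatment. Its members were the 4 mature miRNAs hsa-miR-34a, hsa-miR-34b, hsa-miR-34c-3p and hsa-miR-34c-5p, chosen by name from the 851 human miRNAs that the array lists. HepG2 is an established line of human liver cancer cells. Cells were given 40 µM berberine chloride, a plant isoquinoline alkaloid dissolved in dimethyl sulfoxide (DMSO), or 0.08% DMSO as the control, and were sampled after 2 h and after 4 h. Total RNA of each of the 4 conditions was read on 1 single-colour Agilent human miRNA microarray. There were no replicates, which leaves the variation between cultures unmeasured, and every error below covers the reading of an array only. The arrays read bulk RNA, in which a change in every cell and a change in some cells cannot be told apart.

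The miR-34 family is known for restraining proliferation. Among its miRNAs, hsa-miR-34a represses mRNAs of cell cycle and survival proteins such as CDK4, CDK6, CCND1, MET and BCL2. MIR34A has a transcript of its own, whereas MIR34B and MIR34C are made from 1 shared transcript. The comparison asks whether the family moves within 4 h of berberine. A miRNA finds its targets mainly through its seed, bases 2 to 8 from the 5′ end, and each hairpin can give a mature miRNA from its 5′ arm (5p) and from its 3′ arm (3p).

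The array names follow an older convention in which an asterisk marks the arm taken to be minor. Under it, hsa-miR-34a is the 5p arm of MIR34A and hsa-miR-34a* its 3p arm. For MIR34B the order is turned, with hsa-miR-34b being the 3p arm and hsa-miR-34b* the 5p arm. This rests on the names, because the array files hold no probe sequences. RefSeq sequences of GRCh38.p14 matched 3 of the 4 members, all but hsa-miR-34c-5p. They are shown with those of the other arms and of the miR-449 relatives, because the seed, and not the number in the name, tells which of them share a target site. The capitals mark the seed, and each sequence reads 5′ to 3′.
hsa-miR-34a (5p, MIR34A): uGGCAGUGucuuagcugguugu
hsa-miR-449a (MIR449A): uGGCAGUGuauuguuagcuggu
hsa-miR-449b (5p, MIR449B): aGGCAGUGuauuguuagcuggc
hsa-miR-34b* (5p, MIR34B): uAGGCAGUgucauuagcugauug
hsa-miR-34b (3p, MIR34B): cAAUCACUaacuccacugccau
hsa-miR-34c-3p (MIR34C): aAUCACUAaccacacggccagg
hsa-miR-34a* (3p, MIR34A): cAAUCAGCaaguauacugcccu

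The 7-base seed of hsa-miR-34a was shared by 3 of the 2370 human mature miRNAs of the table, namely itself, hsa-miR-449a and hsa-miR-449b. The member hsa-miR-34c-5p was not among the 2370, so this count does not tell whether it shares that seed. The 5p arm of MIR34B holds the same bases moved by 1 position, and its seed was shared with hsa-miR-449c-5p and hsa-miR-2682-5p. Aligned without gaps, hsa-miR-34a was identical to hsa-miR-449a at 15 of 22 bases and to hsa-miR-34b* at 12 of 22. The members hsa-miR-34b and hsa-miR-34c-3p are 3p arms, with seeds that no other miRNA of the table had, and they were identical to each other at 17 of 21 aligned bases. MIR34A lies on the minus strand at chr1:9151668-9151777 (GRCh38.p14), within the interval of the long non-coding RNA gene MIR34AHG. MIR34B (chr11:111512938-111513021) and MIR34C (chr11:111513439-111513515) lie on the plus strand, 417 bases apart, within the intervals of the long non-coding RNA gene MIR34BHG and of the protein-coding gene BTG4.

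Of the 4 members, only hsa-miR-34a was detected, and it was detected on all 4 arrays. The other 3 members were detected on no array. Over all human miRNAs, 23.1% were detected on all 4 arrays and 70.4% on none. Feature Extraction, the image software of the array, calls a probe detected when its summed signal exceeds 3 times its own error, and a miRNA detected when at least 1 of its probes is. Each of the undetected members was read by 16 spots on each array. The probe signals of hsa-miR-34b ran from -1.01 to 0.946 intensity units over its 8 values (probes times arrays), against detection limits of 3.36 to 4.73. Those of hsa-miR-34c-3p ran from -1.51 to -0.034 over 16 values, against limits of 1.68 to 2.36, and were thus all below 0 after background subtraction. Those of hsa-miR-34c-5p ran from -0.049 to 0.417 over 8 values, against limits of 3.37 to 4.73, and 1 of its 64 spots, on the DMSO array at 2 h, was well above background. No probe of these 3 members came near its limit on any array, with or without berberine. They have no ratio here, and a change below the limits would not have been seen. The miR-449 relatives were likewise undetected on all 4 arrays, with probe signals of -0.633 to 1.34 for hsa-miR-449a and -0.347 to 0.703 for hsa-miR-449b. hsa-miR-449b* is not listed on the array under that name, so it has no value here.

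**Figure D1:**
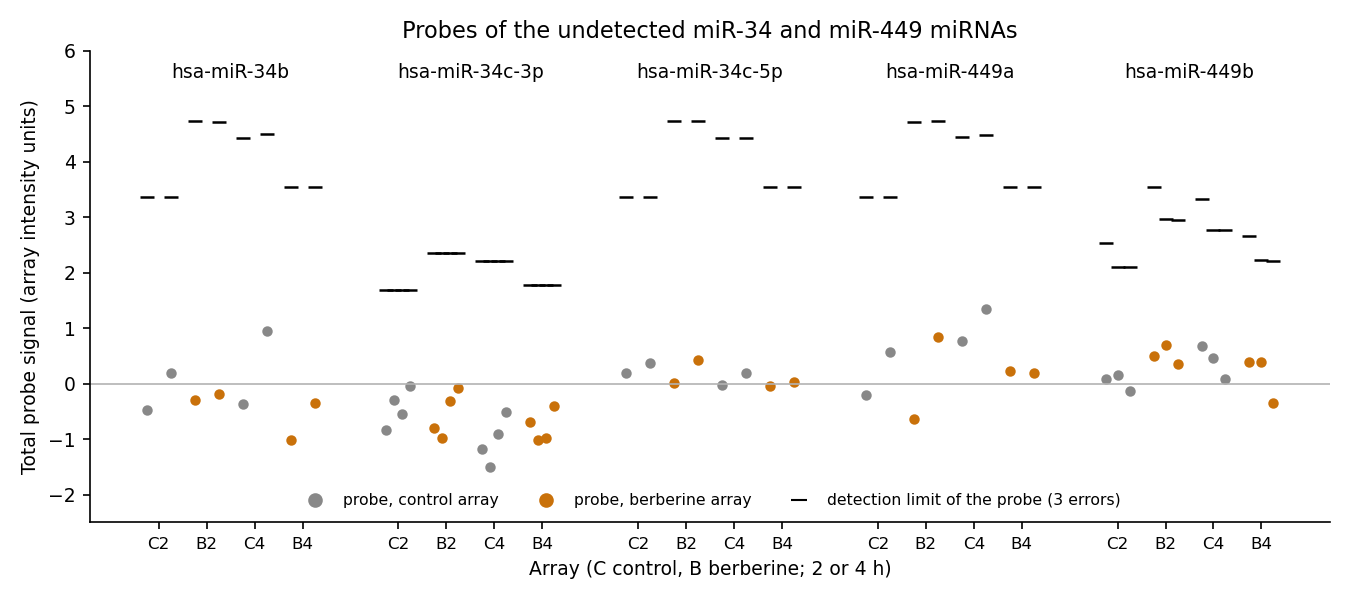
Summed signal of each probe (y axis, array intensity units) for the 3 undetected members and the 2 miR-449 relatives on the 4 arrays (x axis; C control, B berberine, at 2 or 4 h). Each point is 1 probe and each dash its detection limit of 3 errors, and all points lie below their dashes, with the highest at 1.34.

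A signal was nevertheless read under the name of the other arm of MIR34B. hsa-miR-34b*, the 5p arm, was detected on all 4 arrays with all 16 of its spots well above background on each, whereas hsa-miR-34b, the 3p arm of the same hairpin, had 0 of 64 spots well above background. hsa-miR-34a*, the 3p arm of MIR34A, was detected on all 4 arrays as a dim miRNA, with 8 or 9 of its 16 spots well above background. The results below therefore cover hsa-miR-34a and these 2 other arms, which are not among the members chosen by name. Of these arms, hsa-miR-34b* carries the shifted seed, whereas the members hsa-miR-34b and hsa-miR-34c-3p have other seeds. Whether the probes of hsa-miR-34b* also read the brighter hsa-miR-34a was not tested, and no probe sequences were at hand.

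hsa-miR-34a, a repressor of cell cycle mRNAs, gave 1329.7 ± 96.5 intensity units with DMSO and 926 ± 67.6 with berberine after 2 h, where the error is that of Feature Extraction. After 4 h it gave 1192 ± 87.0 with DMSO and 1620.5 ± 118 with berberine. All 16 of its spots were well above background on each array. The berberine array was thus the dimmest for hsa-miR-34a at 2 h and the brightest at 4 h. The arrays as a whole differed in the same way. Over the 197 human miRNAs found on every array, the 75th percentile of the signal was 243 with DMSO against 169 with berberine after 2 h, and 225 against 297 after 4 h. Unscaled, hsa-miR-34a was at 0.697-fold of the control at 2 h and at 1.36-fold at 4 h, or log2 ratios of -0.52 and 0.44, while the median log2 ratio was -0.55 over the 197 human miRNAs detected on both arrays at 2 h and 0.51 over the 218 at 4 h. The levels and ratios that follow are log2 signals from which the 75th percentile of the array was subtracted. They are therefore relative to the other miRNAs, and a shift shared by most miRNAs is removed. With 1 array per condition, such a shift and a difference in array brightness cannot be told apart.

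After this scaling the level of hsa-miR-34a was 2.45 with DMSO and 2.45 with berberine after 2 h, and 2.40 and 2.45 after 4 h (log2 units above the 75th percentile). These 4 levels differed by less than the error of a single ratio, so no order among the conditions was resolved. The ratio of berberine to DMSO was 1.00-fold at 2 h, a log2 ratio of 0.0032 with a standard error (SE) of 0.15. At 4 h it was 1.03-fold, a log2 ratio of 0.044 with an SE of 0.15. The 95% range of measurement error ran from 0.819-fold to 1.23-fold at 2 h and from 0.843-fold to 1.26-fold at 4 h. A 2-fold change, the threshold that the study's methods name for these arrays, lay outside both ranges. The direction at 4 h depended on the scaling, with a log2 ratio of -0.13 where the arrays were scaled to the median. Only 1 of the 197 miRNAs had a ratio closer to 0 at 2 h, and 27 of 218 had at 4 h, when the median over those 218 was 0.11. The difference of the 2 log2 ratios, 4 h minus 2 h, was 0.041 (SE 0.21, 95% range -0.37 to 0.45).

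Of the 4 members, 0 passed 2-fold at 2 h and 0 at 4 h, where 1.02% of 197 and 0.917% of 218 human miRNAs did. Likewise 0 members had a 95% range lying wholly above or below a log2 ratio of 0 at either time, against a background of 9.14% at 2 h and 11.5% at 4 h. With 1 measurable member these counts say only that hsa-miR-34a was not among the miRNAs past either threshold. Between the 2 DMSO arrays, which held no berberine, hsa-miR-34a was at a log2 ratio of -0.048 (SE 0.15) for 4 h over 2 h, as large as its berberine ratio at 4 h. Between the 2 berberine arrays the ratio of 4 h over 2 h was -0.0065 (SE 0.15) after scaling and 0.81 without it.

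**Figure D2:**
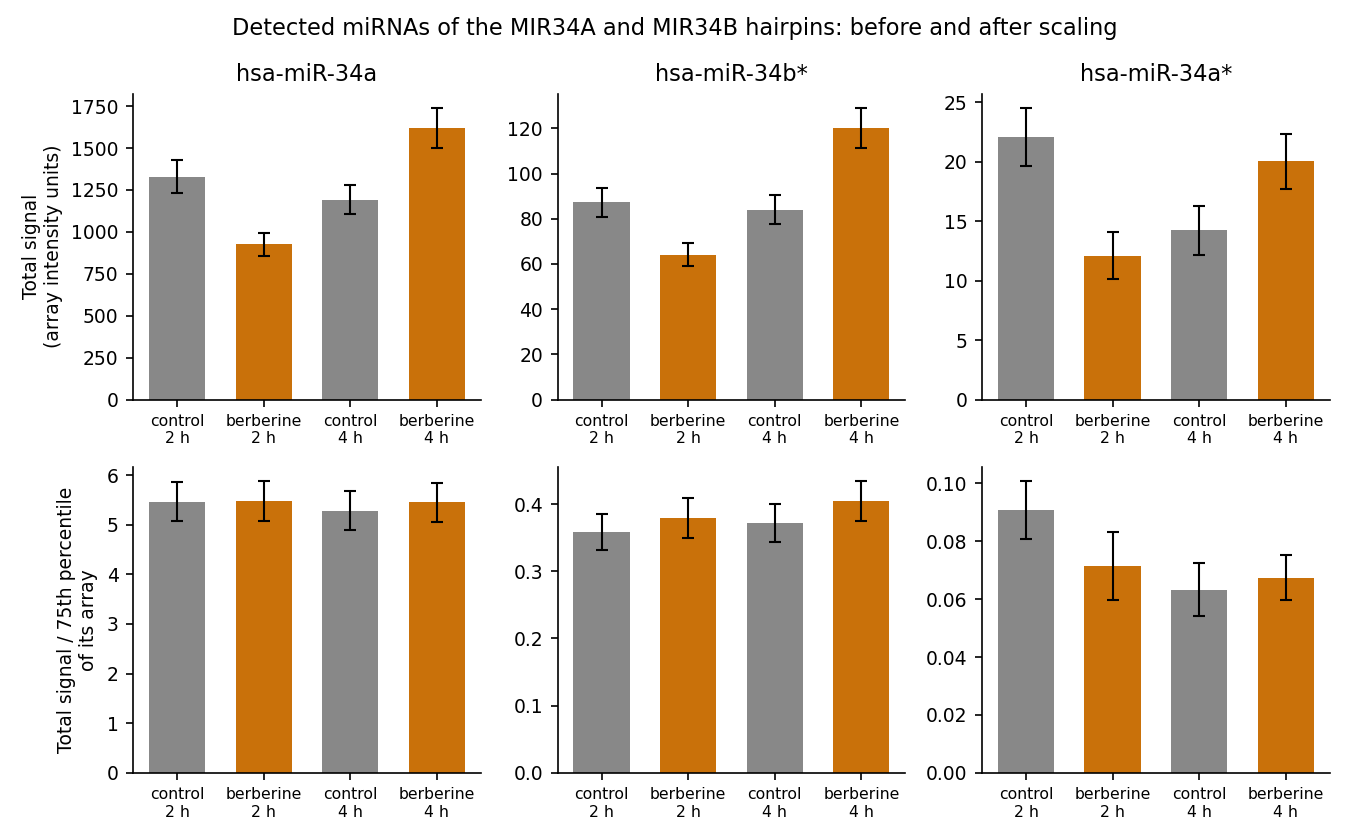
Total signal of hsa-miR-34a, hsa-miR-34b* and hsa-miR-34a* on the 4 arrays, as deposited (upper row, array intensity units) and divided by the 75th percentile of its array (lower row). Bars are single arrays and error bars the error of Feature Extraction; for hsa-miR-34a the bars of 926 to 1620.5 become level after scaling.

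hsa-miR-34a was read by 2 probes with 8 spots each, which gives a second look at the same RNA. The first probe gave scaled log2 ratios of -0.038 at 2 h and 0.094 at 4 h, and the second gave 0.029 and 0.014, each with an SE of 0.20. The spots of a probe varied by 0.841% to 5.49% (coefficient of variation within an array, outlier spots left out). The lowest value rested on 5 of the 8 spots, for the second probe with berberine at 2 h. On the DMSO array at 4 h that probe also kept 5 of 8. For both probes the spots of the berberine and DMSO arrays overlapped at both times after scaling. Spots share 1 labelled RNA and are no replicates of the treatment.

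hsa-miR-34b*, the 5p arm that carries the shifted seed of the family, read 87.2 ± 6.47 with DMSO and 64.1 ± 5.10 with berberine after 2 h. After 4 h it read 83.9 ± 6.39 with DMSO and 120.2 ± 8.76 with berberine. The pattern before scaling was again that of the arrays, low with berberine at 2 h and high at 4 h. Scaled, it was 1.06-fold of DMSO at 2 h, with a log2 ratio of 0.082 and an SE of 0.16. At 4 h it was 1.09-fold, with a log2 ratio of 0.12 and an SE of 0.15, and both 95% ranges included 0. Its 2 probes gave log2 ratios of 0.12 and 0.052 at 2 h and of 0.16 and 0.088 at 4 h, all 4 above 0 and all within their errors of 0.21 to 0.23. The spots of the first probe did not overlap between berberine and control at 4 h, which is a difference of 2 arrays and not of replicated treatments. With scaling to the median the ratio at 4 h was -0.053, and with quantile normalization -0.10, so its direction was not settled.

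**Figure D3:**
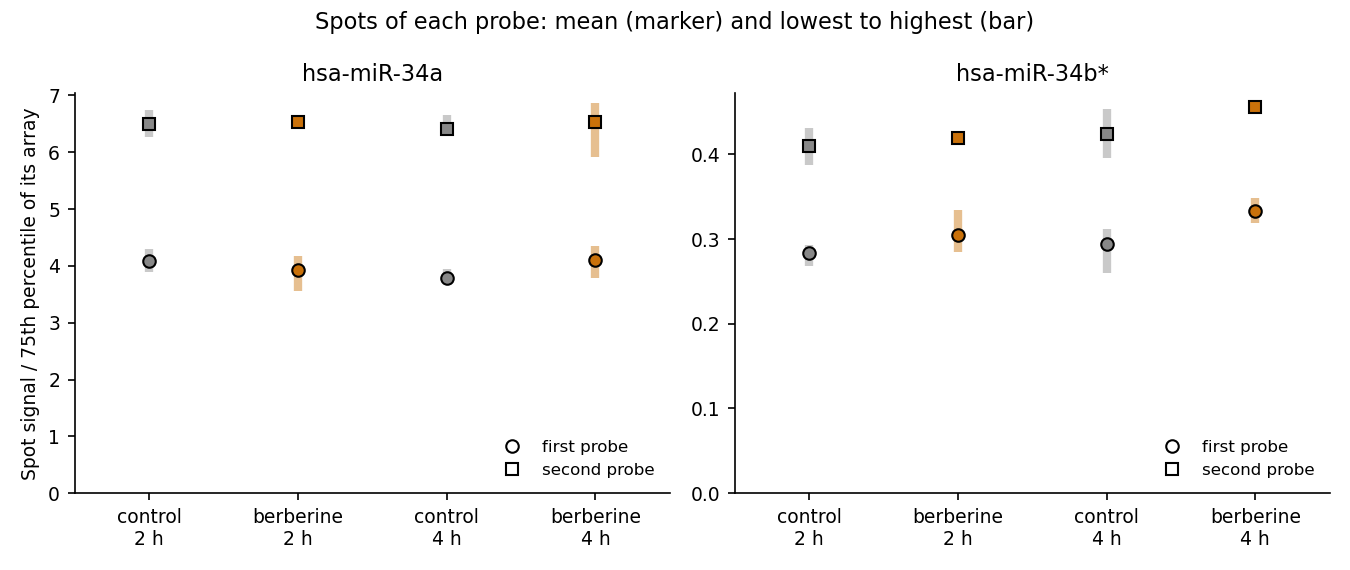
Spot signals of the 2 probes of hsa-miR-34a and of hsa-miR-34b* on the 4 arrays, divided by the 75th percentile of each array (y axis). Markers are means over the spots of a probe and bars run from the lowest to the highest spot, without outlier spots; the bars of a hsa-miR-34a probe overlap between berberine and control at both times.

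hsa-miR-34a*, the 3p partner of hsa-miR-34a in its hairpin, read 22.1 ± 2.44 with DMSO and 12.1 ± 1.99 with berberine after 2 h, and 14.3 ± 2.06 and 20.04 ± 2.33 after 4 h. The scaled log2 ratio was -0.34 (SE 0.29) at 2 h and 0.092 (SE 0.27) at 4 h, and both 95% ranges included 0. The sign at 4 h was not settled, with -0.079 under median scaling and -0.069 where the same probes were summed on each array. At 2 h the total signals summed different probes. The first of its 2 probes was detected on the DMSO array at 2 h only, at 4.08 against a limit of 3.58, so that array alone holds both probes in its sum. That probe lay just under its limit at 4 h, at 4.52 against 4.67 with DMSO and 3.56 against 3.71 with berberine. With berberine at 2 h it read 2.06 against 4.77. The second probe, detected on every array, gave log2 ratios of -0.048 (SE 0.29) at 2 h and 0.092 (SE 0.27) at 4 h. The same holds for the 2 DMSO arrays, where hsa-miR-34a* was lower at 4 h by its total signal (log2 ratio -0.52, SE 0.26) and at -0.23 (SE 0.27) by the second probe alone. Between these DMSO arrays 6.85% of 219 miRNAs had a 95% range that did not include 0.

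For a value over both times, limma was fitted to the 4 arrays with treatment and time point, which uses the times in place of replicates and leaves 1 residual degree of freedom. In this fit hsa-miR-34a stood at 0.024 on the log2 scale (SE 0.21), with an adjusted p of 0.997 and an unadjusted p of 0.909 from limma. Its ratio was above 0 at both of the 2 times with the main scaling, but below 0 at both with median scaling (-0.010 and -0.13). The SE came mainly from the variance pooled over all miRNAs tested (54.2 prior degrees of freedom against 1 residual). It is not the spread of hsa-miR-34a itself. The log2 ratios were 0.10 for hsa-miR-34b* and -0.13 for hsa-miR-34a*, each with an SE of 0.21 and an adjusted p of 0.997 from limma. Of the 197 miRNAs tested, 0.508% passed an adjusted p of 0.05 and 4.57% an unadjusted one, and none of these 3 did either. An adjusted p near 1 in so small a fit does not show that the levels were equal. The ranges of the single ratios above cover measurement error only. They leave out the variation between cultures and the choice of scaling, so they do not bound a change that was missed.

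**Figure D4:**
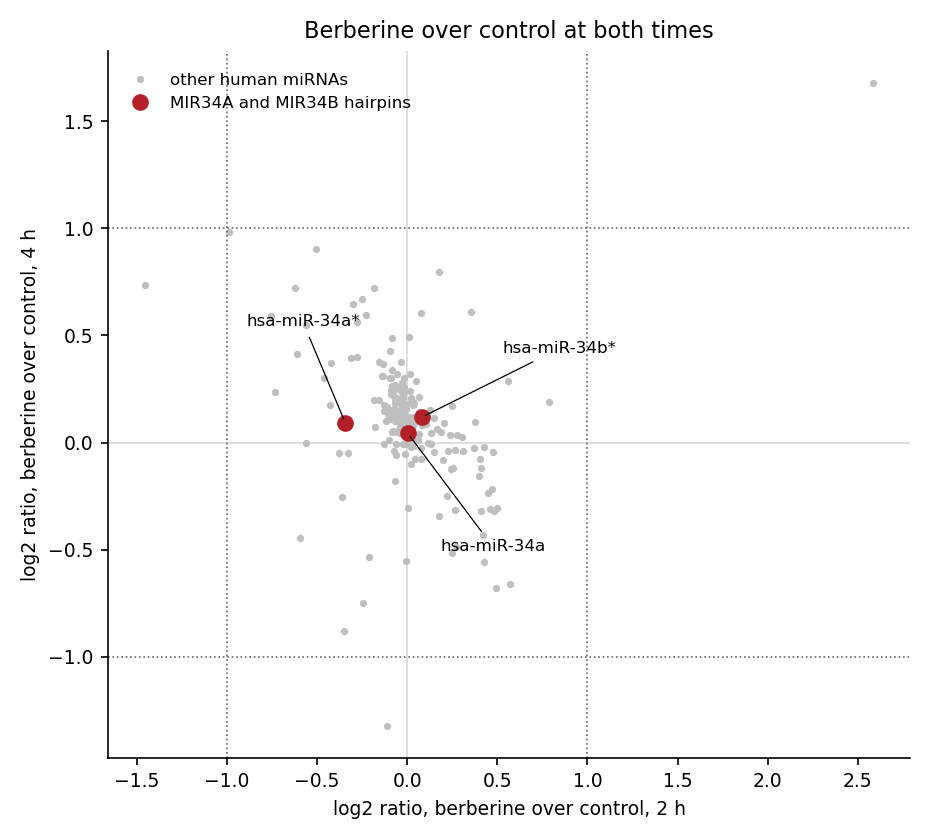
Log2 ratio of berberine over control at 2 h (x axis) and at 4 h (y axis) for the 197 human miRNAs detected on all 4 arrays, after scaling. Each point is 1 miRNA, dotted lines mark 2-fold, and hsa-miR-34a lies at 0.0032 and 0.044, inside the cloud.

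The course of hsa-miR-34a over the 4 arrays was set against those of the other 196 miRNAs detected throughout, by the root mean square difference of scaled log2 signals centred on their mean. The closest were hsa-miR-301a (0.012), hsa-miR-221 (0.017) and hsa-miR-331-3p (0.018), against a median of 0.096 over the 196. These distances rest on 4 arrays and are far below the error of a single ratio, so the order among the closest is not resolved. The other arm of its own hairpin, hsa-miR-34a*, stood at 0.19 and ranked 139, with both of its probes summed on the DMSO array at 2 h alone. By its second probe alone, chosen after the values were seen, it stood at 0.069, below the median, and would rank 71. hsa-miR-34b* stood at 0.063 and ranked 60.

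As a check of the label, all 4 hepatocyte-associated miRNAs of a list (hsa-miR-122, hsa-miR-192, hsa-miR-194 and hsa-miR-885-5p) were detected on all 4 arrays. Their summed signal was 1369.7 to 2594. Most of it came from hsa-miR-192 (821 to 1565) and hsa-miR-194 (498 to 931). hsa-miR-122 (22.4 to 39.9) and hsa-miR-885-5p (28.5 to 58.0) were dim. Of 12 miRNAs typical of blood, endothelium, muscle or neurons, 10 were detected on no array. Over all human miRNAs, 23.1% were detected on all 4 arrays and 70.4% on none. The 10 of 12 thus lay near the share of all miRNAs and say little about the label. hsa-miR-142-3p and hsa-miR-451, both of blood cells, were detected on the berberine array at 4 h alone, with a summed signal of 11.4, and the part of this in any result was not tested. Human miRNAs detected numbered 199 to 242 on an array, and no spot was saturated.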

How the data were processed

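For each array the authors deposited the output of Agilent Feature Extraction 10.7.3.1, which holds an intensity for each spot and, after background subtraction, a total intensity, an error and a detection flag for each probe and miRNA. These are not scaled between arrays, and undetected miRNAs carry a signal of 0.1. Another deposited table, of the authors' own ratios of berberine to control, was not used. Log2 total signals were scaled by subtracting the 75th percentile of each array, taken over the 197 human miRNAs found on all 4. A ratio required detection on both arrays, and its SE was propagated from the Feature Extraction errors. A single time has no replicates and was given no p-value. limma 3.58.1 in R 4.3.3 was fitted over both times with the Benjamini-Hochberg adjustment and tested on simulated data. Alternatives were other scalings, probe summaries, background correction, detection rules and limma settings. The number of arrays limits the precision, as does the background for dim miRNAs, with a median intensity of 24 to 28. The miRNAs named are the members, their other arms and seed relatives, and the 3 closest in course to hsa-miR-34a. A further list of miRNAs is not reported here. Members and lists were chosen with earlier results of these data known. Sequences came from RefSeq (GRCh38.p14). Python 3.11.15 was used with numpy 2.4.6, pandas 2.3.3 and matplotlib 3.10.9.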

Additional observations from a re-analysis of the deposited data

Results flagged for a closer look

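By its total signal, the ratio of berberine to control of hsa-miR-34a* was below 1 at 2 h and above 1 at 4 h. Without replicates the change between the times was not tested. On the log2 scale, 4 h minus 2 h, it came to 0.44 (SE 0.39), and the 95% range of measurement error included 0. By the second probe alone, the one detected on every array, it came to 0.14 (SE 0.40), from ratios of -0.048 and 0.092. Whether the signs were opposite depended on the scaling and on the probes summed. They stayed opposite with quantile normalization (-0.28 and 0.065) and without scaling (-0.87 and 0.49). Normexp gave opposite signs the other way round (0.29 and -0.25). With the same probes summed the ratios were -0.12 at 2 h and -0.069 at 4 h, both below 0, and at 4 h the ratio was also below 0 with median scaling (-0.079), the brightest probe (-0.013) and the mean of the probes (-0.069). With the main processing, opposite signs were found for 133 of the 197 miRNAs measured on all 4 arrays, but for neither hsa-miR-34a nor hsa-miR-34b*. This too depended on the processing. Without scaling the signs were opposite for hsa-miR-34a (-0.52 and 0.44) and for hsa-miR-34b* (-0.44 and 0.52). They were also opposite by the brightest probe, at 0.025 and -0.091 and at 0.048 and -0.017. With the same probes summed they stayed alike for both miRNAs.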

How the results depend on the processing

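All alternatives were planned except the second probe of hsa-miR-34a* alone, which was added after seeing the data. It took the difference of its ratios between the times from 0.44 to 0.14 and its distance from hsa-miR-34a from 0.19 to 0.069. Under both other detection rules 1 of the 4 members was detected on each array. No member passed 2-fold, except that 1 did at 2 h where the 75th percentile was taken over all human miRNAs. On the berberine array at 2 h this percentile equals the value of an undetected miRNA, and it moved every ratio there. Values are log2 ratios at 2 h, at 4 h and between the control arrays. With that percentile hsa-miR-34a was at 5.11, -0.36 and 0.46 and hsa-miR-34a* at 4.76, -0.31 and -0.018. Without scaling, hsa-miR-34a was at -0.52 and 0.44 and hsa-miR-34a* at -0.87 and 0.49. Median scaling gave hsa-miR-34a -0.13 at 4 h and 0.16 between the control arrays. The brightest probe gave it 0.11 there, and gave hsa-miR-34a* -0.052 at 2 h and -0.10 between the control arrays. That last ratio was -0.12 with the mean of the probes and with the same probes summed. Normexp, run on the median signal because the files hold no mean signal, gave hsa-miR-34a* 0.29, -0.25 and 0.062.

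The limma fit pairs the arrays of each time through the time point. Dropping this block cannot move the log2 ratio in so balanced a layout, and it was 0.024 for hsa-miR-34a either way, while the SE went from 0.21 to 0.11 and the adjusted p from limma was 0.997. Over 13 alternatives the adjusted p of hsa-miR-34a from limma ran from 0.926 to 1, and its log2 ratio was negative in 4, at -0.039 without scaling, -0.069 with median scaling, -0.033 for the brightest probe and -2.94e-05 without the control array at 4 h. Leaving out each array in turn dropped the time point and assumed the lone array to vary like the others. It gave -2.94e-05 to 0.048 for hsa-miR-34a, -0.39 to 0.14 for hsa-miR-34a* and 0.054 to 0.15 for hsa-miR-34b*, which quantile normalization put at -0.071. The cause of these changes was not tested.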
